A study of Mus musculus with 10 samples.

Results

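Toll-like receptors are pattern-recognition receptors that bind molecules made by microbes or released by damaged cells. Those of the plasma membrane mainly bind components of the microbial surface, and those of endosomes bind nucleic acids. Binding brings adaptor proteins such as MYD88 to the receptor's cytoplasmic domain, and kinases then activate NF-κB and interferon regulatory factors, which switch on cytokine genes. Macrophages are a main site of this signaling, and epithelial cells carry a subset of the receptors. The mRNA of 10 mouse receptor genes (*Tlr1*, *Tlr2*, *Tlr3*, *Tlr4*, *Tlr5*, *Tlr6*, *Tlr7*, *Tlr8*, *Tlr9*, and *Tlr13*), chosen by symbol from the 55487 genes of the count tables, was described here in mammary gland macrophages and mammary epithelial cells (MECs) of mice with and without *Cebpb* in their macrophages. C/EBPβ, the product of *Cebpb*, is a transcription factor of myeloid and epithelial cells.

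All libraries came from 10-wk-old BALB/c females in diestrus that carried floxed *Cebpb* alleles (*Cebpb* fl/fl). The Cebpb ΔM mice also carried *Csf1r-iCre*, which is active in CSF1R-expressing myeloid cells in general and not in mammary macrophages alone, and the WT littermates lacked Cre. Macrophages were enriched by positive selection for F4/80 (2 WT and 4 Cebpb ΔM libraries), and MECs were enriched by removing cells with lineage markers (2 WT and 2 Cebpb ΔM libraries). The labels do not say which libraries came from the same mouse, and the *P*-values measure only the spread between libraries.

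Total counts were 16935000–20174722 in the macrophage libraries and 25310926–27008166 in the MEC libraries, of which the 10 genes took 3629–7497 and 1834–3164 counts, respectively. *Cebpb* itself (ENSMUSG00000056501, chromosome 2) had 13 and 15 counts in WT macrophages and 4–16 in Cebpb ΔM macrophages, so its counts do not separate the genotypes and do not check the labels. The summed level of 10 macrophage markers was 2811–6609 CPM (counts scaled to library size) in the macrophage libraries and 29.9–45.8 CPM in the MECs, where *Adgre1*, the gene of F4/80, was at 0–0.526 CPM. The macrophage libraries also held epithelial RNA, with 10 of 10 epithelial markers detected and a sum of 5376–9580 CPM against 30970–38110 CPM in the MECs. The sums of both lists moved with the genotype: macrophage markers were at 2811 and 4231 CPM in WT and 4547–6609 CPM in Cebpb ΔM macrophages, and epithelial markers were at 9484 and 9580 CPM in WT and 5376–6971 CPM in Cebpb ΔM macrophages. Of the macrophage markers, 10 of 10 had a positive log2 fold change, against 50.4% of all genes tested. Every Cebpb ΔM library was above every WT library for 4 of them, against 10.4% of all genes tested. The epithelial markers were mixed, with 4 of 10 positive and a median of -0.15. In bulk RNA, more cells of a type and more RNA per cell cannot be told apart, and the genotype values of the 10 receptors in macrophages are also given relative to the macrophage marker sum.

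The 10 genes lie on 7 chromosomes of GRCm38, and several sit side by side. *Tlr7* (ENSMUSG00000044583, X:167304929-167330558) and *Tlr8* (ENSMUSG00000040522, X:167242696-167264329) are neighbors on the minus strand of the X chromosome with 40599 bp between them, and *Tlr13* (ENSMUSG00000033777, X:106143204-106160493) is also X-linked. *Tlr1* (ENSMUSG00000044827, 5:64924679-64933563) and *Tlr6* (ENSMUSG00000051498, 5:64952031-64960097) are neighbors on the minus strand of chromosome 5, 18467 bp apart. The others are *Tlr2* (ENSMUSG00000027995, 3:83836272-83841767), *Tlr3* (ENSMUSG00000031639, 8:45395665-45411080), *Tlr4* (ENSMUSG00000039005, 4:66827584-66930284), *Tlr5* (ENSMUSG00000079164, 1:182954788-182976044), and *Tlr9* (ENSMUSG00000045322, 9:106222598-106226883). Of the 10, only *Tlr3* shares bases with another gene of the tables, the opposite-strand *Gm45542*. *Cebpb* shares bases with the opposite-strand *Tmem189*. The counting was set to the reverse strand, but whether the library kit marks strand is not given in the sources used here. Reads of opposite-strand partners may thus not be told apart, and the *Cebpb* counts may not give its level.

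Because the deleted factor binds DNA, the RefSeq promoter windows of the members (300 bases, from 250 before to 50 after the start site, GRCm38.p6) were searched on both strands for a C/EBP-type motif, TTNNGNAA, and for the core GAGGAA bound by PU.1, the myeloid factor encoded by *Spi1*. The motifs can overlap, as they do in the *Tlr9* window. Windows were at hand for 8 of the 10 genes, and not for *Tlr4* or *Tlr7*. The C/EBP-type motif was in a window of *Tlr2*, *Tlr3*, *Tlr6*, *Tlr8*, *Tlr9*, and *Tlr13* (6 of their 10 windows, against 40.7% of all 32851 promoter windows), and GAGGAA was in a window of *Tlr1*, *Tlr8*, *Tlr9*, and *Tlr13* (4 of 10 windows, against 28.3% of all windows). *Tlr6* was the member with the smallest *P* between genotypes in macrophages in edgeR's quasi-likelihood test. In DESeq2 and in edgeR's likelihood ratio test that member was *Tlr7*, which had no window. *Tlr8* and *Tlr13* are endosomal receptors whose genotype groups overlapped. Below are the 250 bases before the start site of *Tlr6*, *Tlr8*, and *Tlr13*, with matches to either motif in capitals.
*Tlr6* (minus strand, chr5:64959167-64959416): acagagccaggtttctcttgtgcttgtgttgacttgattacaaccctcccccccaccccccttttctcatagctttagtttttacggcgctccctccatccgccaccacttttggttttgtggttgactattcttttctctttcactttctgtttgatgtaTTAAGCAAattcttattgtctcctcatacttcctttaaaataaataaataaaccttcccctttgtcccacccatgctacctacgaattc
*Tlr8* (minus strand, chrX:167264330-167264579): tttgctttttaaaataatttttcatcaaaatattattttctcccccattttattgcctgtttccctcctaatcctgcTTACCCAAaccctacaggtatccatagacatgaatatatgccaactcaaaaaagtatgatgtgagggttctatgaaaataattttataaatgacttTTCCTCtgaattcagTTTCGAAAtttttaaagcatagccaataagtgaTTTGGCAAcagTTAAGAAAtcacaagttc
*Tlr13* (plus strand, chrX:106143025-106143274): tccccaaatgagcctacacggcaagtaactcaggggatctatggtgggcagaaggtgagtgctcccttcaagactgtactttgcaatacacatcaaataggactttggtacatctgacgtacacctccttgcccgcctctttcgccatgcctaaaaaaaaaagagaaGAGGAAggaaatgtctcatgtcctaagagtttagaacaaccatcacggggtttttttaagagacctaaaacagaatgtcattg
The *Tlr8* window held the C/EBP-type motif at 5 places, 1 of them after the start site, and the *Tlr6* window held it at 1 place. The only C/EBP-type match of *Tlr9* and that of *Tlr13* lie after the start site, so the *Tlr13* bases shown do not include it. A second *Tlr6* window, upstream of the one shown, held neither motif. Binding was not measured, and a match is only a stretch of letters.

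*Tlr2* was the most abundant receptor mRNA in every library, and the receptors fell into a group found in the libraries of both cell types and a group near 0 in MECs. On a scale of CPM per kb of exon, which allows genes to be compared, the 10 genes summed to 49.0 and 75.5 in WT macrophages, 75.9–101 in Cebpb ΔM macrophages, 35.0 and 28.0 in WT MECs, and 20.5 and 21.3 in Cebpb ΔM MECs. *Tlr2*, whose product pairs with TLR1 or TLR6 to bind bacterial lipopeptides, made up 38.2–52.7% of that sum in the macrophage libraries and 68.8–71.3% in the MEC libraries. *Tlr4*, the lipopolysaccharide receptor, made up 7.05–10.5% in macrophages and 14.5–17% in MECs. *Tlr7*, *Tlr8*, and *Tlr13*, the endosomal sensors of single-stranded and ribosomal RNA, together with the DNA sensor *Tlr9*, were at or near 0 in MECs.

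**Figure D1:**
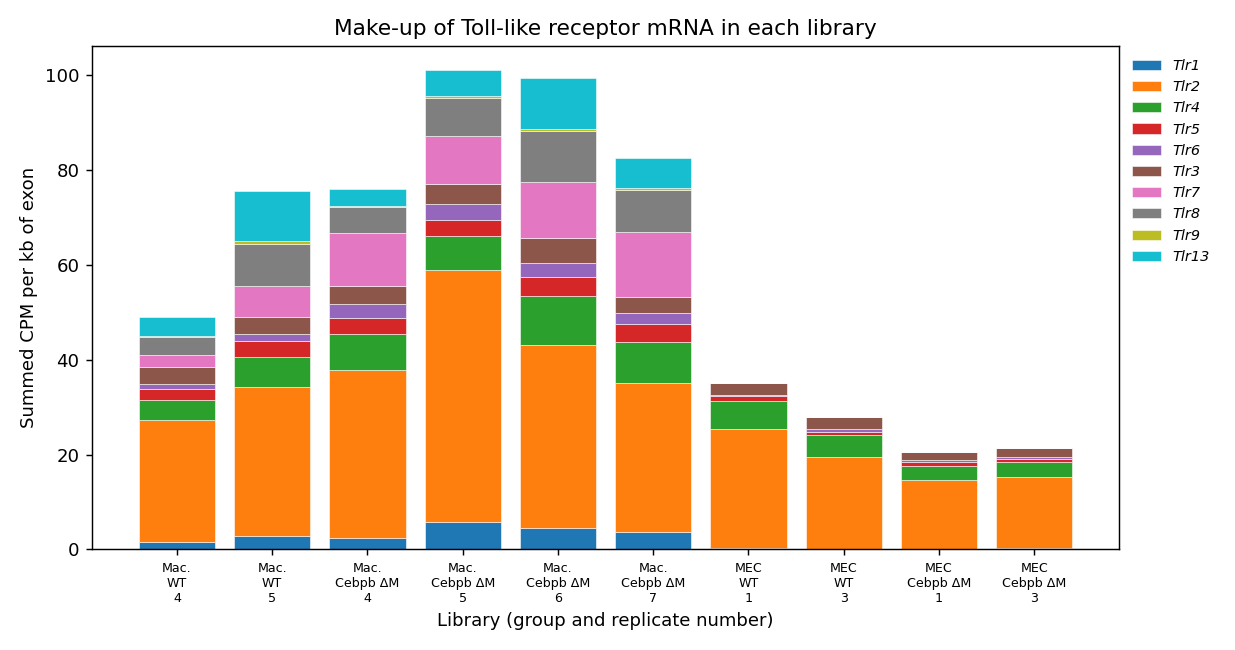
Stacked bars give CPM per kb of exon of the 10 Toll-like receptor genes in each library, by group and replicate number. *Tlr2* is the tallest segment in every bar, and the *Tlr7*, *Tlr8*, and *Tlr13* segments are visible only in the macrophage libraries.

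In WT macrophages the order of mean levels, in CPM per kb, was *Tlr2* (28.6 ± 4.14), *Tlr13* (7.22 ± 4.71), *Tlr8* (6.37 ± 3.67), *Tlr4* (5.28 ± 1.30), *Tlr7* (4.56 ± 2.78), *Tlr3* (3.61 ± 0.00707), *Tlr5* (2.89 ± 0.845), *Tlr1* (2.14 ± 0.861), *Tlr6* (1.18 ± 0.281), and *Tlr9* (0.383 ± 0.175; SD, n = 2 each). The ranges of neighbors overlapped from *Tlr13* down to *Tlr3*, and those of *Tlr5* and *Tlr1* overlapped. *Tlr2* lay above its neighbor, *Tlr3* above *Tlr5*, *Tlr1* above *Tlr6*, and *Tlr6* above *Tlr9* in both libraries. In Cebpb ΔM macrophages *Tlr7* took the second place at 11.8 ± 1.42 CPM per kb (SD, n = 4), although its range overlapped that of *Tlr4*, the next in order. *Tlr2* (39.7 ± 9.49) was again first and *Tlr9* (0.373 ± 0.113) last, each apart from its neighbor, and the ranges of all other neighbors overlapped.

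In WT MECs the order was *Tlr2* (22.1 ± 4.02), *Tlr4* (5.29 ± 0.934), *Tlr3* (2.43 ± 0.112), *Tlr5* (0.965 ± 0.213), *Tlr6* (0.436 ± 0.247), and *Tlr1* (0.254 ± 0.171 CPM per kb; SD, n = 2 each). The ranges of neighbors did not overlap from *Tlr2* down to *Tlr6*, and those of *Tlr6* and *Tlr1* did. The order was the same in the MECs of Cebpb ΔM mice, at lower values: *Tlr2* was at 14.7 ± 0.318, *Tlr4* at 3.10 ± 0.178, and *Tlr3* at 1.73 ± 0.176 CPM per kb (SD, n = 2 each).

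**Figure D2:**
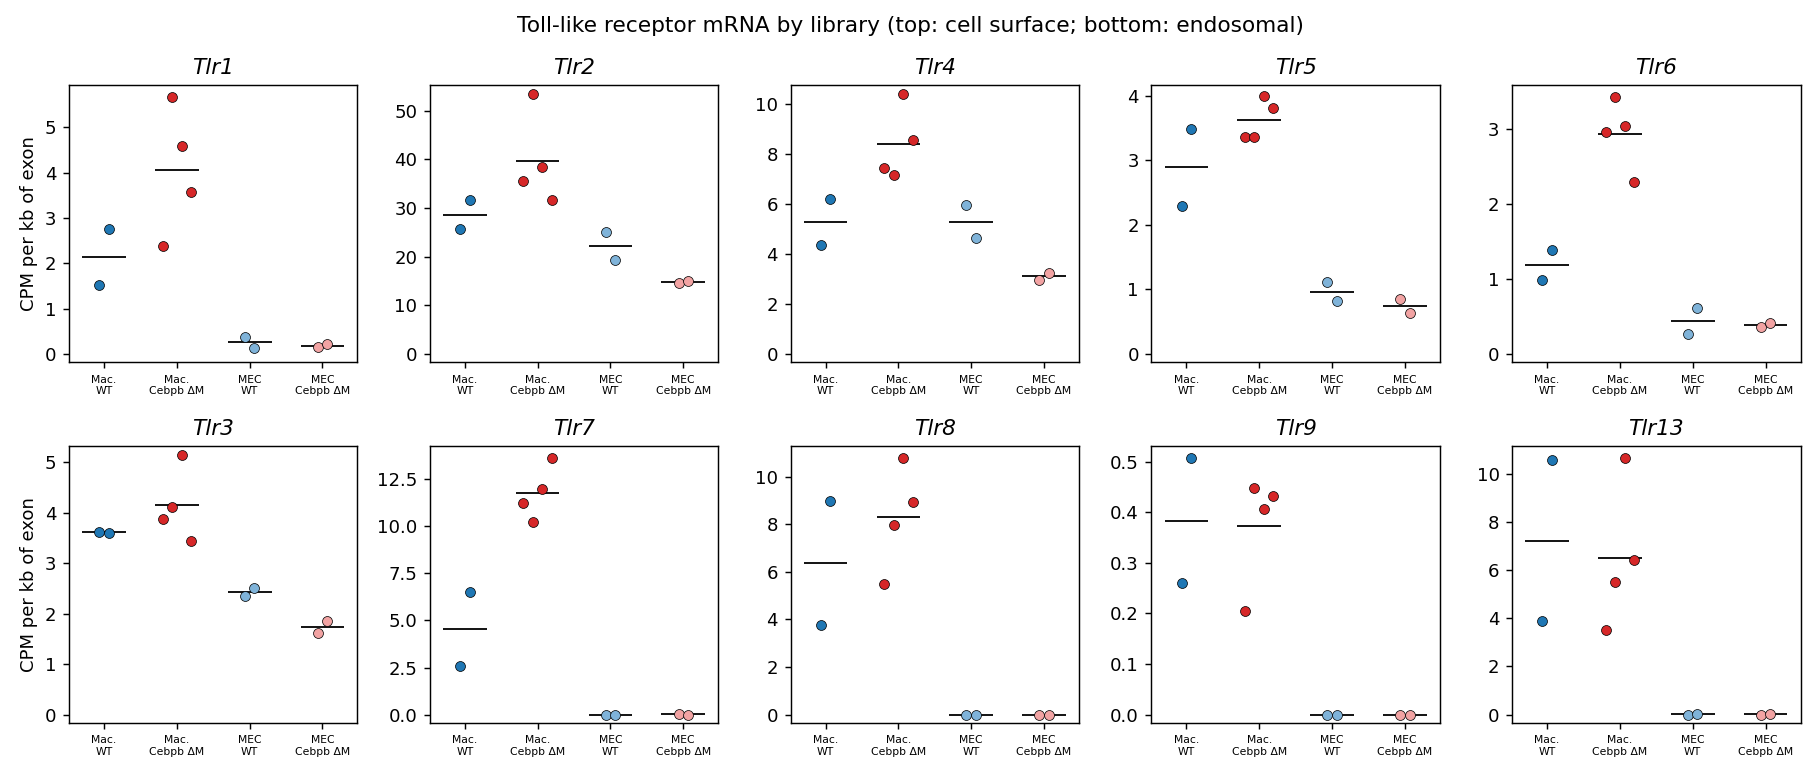
Each panel plots 1 receptor gene in CPM per kb of exon on a linear axis; points are libraries and bars are group means (Mac., macrophages). *Tlr6* and *Tlr7* are higher in all 4 Cebpb ΔM macrophage libraries than in both WT libraries, and *Tlr2*, *Tlr3*, and *Tlr4* are lower in both Cebpb ΔM MEC libraries than in both WT MEC libraries.

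To learn which receptors distinguish the cell types, WT macrophages were compared with WT MECs. Of the 10 members, 7 were higher in macrophages at an adjusted *P* ≤ 0.05 (edgeR quasi-likelihood test with Benjamini–Hochberg adjustment over 18323 genes), where 14.8% of all genes tested were higher in macrophages. These were *Tlr1*, *Tlr5*, *Tlr6*, *Tlr7*, *Tlr8*, *Tlr9*, and *Tlr13*. *Tlr2*, *Tlr3*, and *Tlr4* did not pass the test. *Tlr1*, *Tlr7*, *Tlr8*, *Tlr9*, and *Tlr13* passed the expression filter only through the macrophage libraries, which fixed their direction, so nothing is read from the count of 7. Of the 5 members above the filter in the MEC libraries, *Tlr5* and *Tlr6* were higher in macrophages.

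*Tlr7*, *Tlr8*, and *Tlr13* were the members with the widest gap. *Tlr8* had 270 and 675 counts in WT macrophages and 0 counts in all 4 MEC libraries, which is at least 188-fold higher in WT macrophages when the MEC libraries are set to 3 counts each, the limit that a count of 0 allows (counting error only). *Tlr7* had 211 and 559 counts in WT macrophages and 0 in both WT MEC libraries, at least 153-fold higher, and a single count in the 2 MEC libraries of Cebpb ΔM mice. *Tlr9*, which binds unmethylated CpG DNA, was rare in macrophages too, with 18 and 37 counts in WT macrophages and 0 in all MEC libraries, at least 11-fold higher. *Tlr13*, the sensor of bacterial ribosomal RNA, had 334 and 954 counts in WT macrophages and 0 and 3 in WT MECs, a ratio of 517 with a 95% counting interval of 177–2510. The macrophage counts and the MEC counts of these genes did not overlap in any library.

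Among the surface receptors, *Tlr1* was at 5.12 and 9.19 CPM in WT macrophages and at 1.25 and 0.447 CPM in WT MECs. Its log2 fold change was 3.06 (SE 0.58). *Tlr1* passed the expression filter only through the macrophage libraries, so nothing is read from its test. *Tlr5*, the flagellin receptor, was at 10.98 and 16.7 CPM in WT macrophages and at 5.34 and 3.90 CPM in WT MECs (log2 fold change 1.58, SE 0.31, adjusted *P* = 0.00397, edgeR). *Tlr6* was at 3.66 and 5.14 CPM in WT macrophages and at 0.971 and 2.28 CPM in WT MECs (log2 fold change 1.44, SE 0.44, adjusted *P* = 0.0331, edgeR). The *Tlr5* and *Tlr6* calls each rest on single libraries: the adjusted *P* for *Tlr6* was 0.128 without WT macrophage library 5 and 0.207 without WT MEC library 1, and that for *Tlr5* was 0.0503 without WT MEC library 3 (edgeR).

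*Tlr2*, *Tlr3*, and *Tlr4* were found in the libraries of both cell types, with ratios of the macrophage to the MEC mean of 1.30, 1.49, and 0.999. *Tlr4* was at 24.2 and 34.5 CPM in WT macrophages and at 33.1 and 25.7 CPM in WT MECs, and the log2 difference was -0.00 with a 95% interval of -0.57 to 0.57. *Tlr2* was at 77.5 and 95.1 CPM in WT macrophages and at 75.2 and 58.0 CPM in WT MECs (log2 difference 0.37, 95% interval -0.19 to 0.94). *Tlr3*, the double-stranded RNA sensor, was at 18.8 CPM in both WT macrophage libraries and at 12.2 and 13.04 CPM in WT MECs (log2 difference 0.57, 95% interval 0.02 to 1.12, adjusted *P* = 0.119, edgeR). The macrophage marker sum was 29.9 and 35.3 CPM in the WT MEC libraries and 2811 and 4231 CPM in the WT macrophage libraries. A list of 8 endothelial and fibroblast markers summed to 5159 and 6306 CPM in the WT MEC and 7101 and 7366 CPM in the WT macrophage libraries. The epithelial marker sum of the WT macrophage libraries was 9484 and 9580 CPM. Which cells the *Tlr2*, *Tlr3*, and *Tlr4* mRNA came from was not tested.

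The same comparison in Cebpb ΔM mice gave 10 of 10 members higher in macrophages, against 18.9% of all genes, with the same effect of the filter on 5 of them. *Tlr4* was at 39.6–57.7 CPM in Cebpb ΔM macrophages and at 16.5 and 17.9 CPM in the MECs, a ratio of means of 2.70 (log2 fold change 1.43, SE 0.24, adjusted *P* = 0.00092, edgeR). *Tlr2* had the same ratio of means, 2.70, and *Tlr3* one of 2.39. The difference between the genotypes in this cell type contrast is the interaction tested after the MEC results. The *Tlr1* ratio was 22.1 in Cebpb ΔM mice and 8.41 in WT mice, and the *Tlr6* ratio was 7.53 and 2.71.

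To ask whether *Cebpb* deletion went with a difference in receptor mRNA, Cebpb ΔM macrophages were compared with WT macrophages. *Tlr7* and *Tlr6* stood highest, at 2.58 and 2.48 times the WT mean, followed by *Tlr1* (1.89), *Tlr4* (1.59), *Tlr2* (1.39), *Tlr8* (1.30), *Tlr5* (1.26), *Tlr3* (1.15), *Tlr9* (0.973), and *Tlr13* (0.901). None of the 10 passed an adjusted *P* of 0.05 in edgeR's quasi-likelihood test, and neither did any of the 17772 genes tested (0.0%). At an unadjusted *P* under 0.05, 1534 genes were counted in either direction and 3 members were higher (*Tlr4*, *Tlr6*, and *Tlr7*), where 4.96% of all genes were higher. DESeq2 called 201 genes at an adjusted *P* of 0.05, and *Tlr6* and *Tlr7* were the 2 members among those higher in Cebpb ΔM macrophages, where 0.928% of all genes were. edgeR's likelihood ratio test, the kind of test the paper used, called 138 genes and no member. The paper itself lists *Tlr7* among the genes higher in its Cebpb ΔM macrophages.

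*Tlr7* mRNA was at 10.6 and 26.6 CPM in WT macrophages and at 45.8, 41.8, 48.9, and 55.6 CPM in Cebpb ΔM macrophages (libraries 4–7). All 4 Cebpb ΔM libraries lay above both WT libraries, and the WT libraries differed from each other by more than the Cebpb ΔM libraries did. The log2 fold change was 1.34 (SE 0.35), with an adjusted *P* of 0.461 in the quasi-likelihood test, 0.0517 in the likelihood ratio test, and 0.0237 in DESeq2. Leaving out WT library 4 gave 0.82 and leaving out WT library 5 gave 2.16. TLR7 binds single-stranded RNA in endosomes and drives interferon and cytokine genes.

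*Tlr6* mRNA was at 3.66 and 5.14 CPM in WT macrophages and at 11, 12.8, 11.3, and 8.53 CPM in Cebpb ΔM macrophages. The groups did not overlap, and the lowest Cebpb ΔM library was above the highest WT library. The log2 fold change was 1.28 (SE 0.31), with an adjusted *P* of 0.452 in the quasi-likelihood test, 0.0893 in the likelihood ratio test, and 0.0343 in DESeq2. Its chromosomal neighbor *Tlr1*, whose product is the alternative partner of TLR2, was at 5.12 and 9.19 CPM in WT and at 7.95, 19.0, 15.4, and 11.95 CPM in Cebpb ΔM macrophages. The *Tlr1* groups overlapped through Cebpb ΔM library 4 (log2 fold change 0.90, SE 0.41, adjusted *P* = 0.596, edgeR).

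*Tlr4* mRNA was at 24.2 and 34.5 CPM in WT macrophages and at 41.3, 39.6, 57.7, and 47.6 CPM in Cebpb ΔM macrophages, and the groups did not overlap. The log2 fold change was 0.64 (SE 0.23, adjusted *P* = 0.524, edgeR). *Tlr2* mRNA was at 77.5 and 95.1 CPM in WT and at 107, 161, 116, and 95.1 CPM in Cebpb ΔM macrophages (log2 fold change 0.45, SE 0.24, adjusted *P* = 0.643, edgeR). The lowest Cebpb ΔM library and the highest WT library were at the same *Tlr2* level to 3 digits. Counting *Tlr2*, 4 of 10 members had every Cebpb ΔM library above every WT library on this scale, where 10.4% of all genes tested did. With scaling over the macrophage libraries alone, as in the genotype test, the *Tlr2* groups overlapped.

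The remaining members overlapped between genotypes. *Tlr8* was at 13.5 and 32.1 CPM in WT and at 19.6, 28.5, 38.6, and 32.1 CPM in Cebpb ΔM macrophages (log2 fold change 0.35, 95% interval -0.52 to 1.23). *Tlr13* was at 16.8 and 45.4 CPM in WT and at 15.0, 23.7, 45.8, and 27.6 CPM in Cebpb ΔM macrophages (log2 fold change -0.18, 95% interval -1.29 to 0.93). *Tlr5*, *Tlr3*, and *Tlr9* had log2 fold changes of 0.30, 0.17, and -0.07. Single libraries set the direction of 3 of them: *Tlr8* was at -0.14 without WT library 4, *Tlr9* and *Tlr13* were at 0.49 and 0.72 without WT library 5 and at 0.13 and 0.03 without Cebpb ΔM library 4. The intervals of all 5 include 0 and also include changes of the size seen for *Tlr4*.

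**Figure D3:**
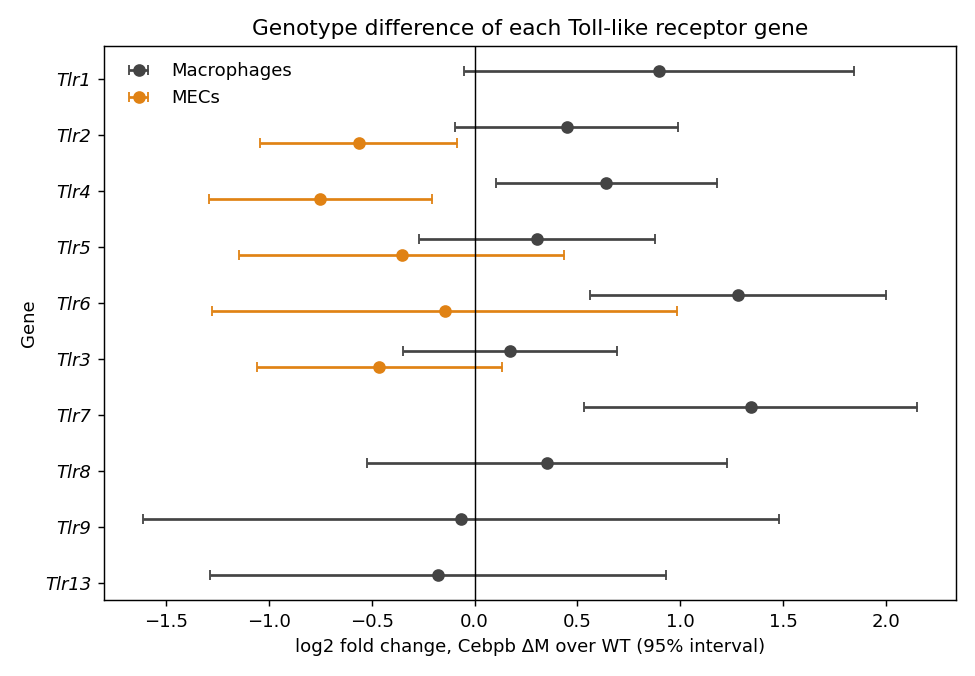
Points give the log2 fold change of Cebpb ΔM over WT from edgeR's quasi-likelihood fit, with 95% intervals, in macrophages (dark) and MECs (orange); genes below the expression filter in MECs have no orange point. In macrophages the intervals of *Tlr4*, *Tlr6*, and *Tlr7* lie above 0, and in MECs those of *Tlr2* and *Tlr4* lie below 0.

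The level of *Tlr7* relative to its neighbor *Tlr8*, both per kb, was 0.687 and 0.728 in WT macrophages and 2.05, 1.29, 1.11, and 1.52 in Cebpb ΔM macrophages. *Tlr7* was thus below *Tlr8* in both WT libraries and above it in all 4 Cebpb ΔM libraries. Its ratio to *Tlr13* was 0.666 and 0.618 in WT and 1.13–3.21 in Cebpb ΔM macrophages, and that of *Tlr8* to *Tlr13* also separated the genotypes (0.970 and 0.849 against 1.01–1.57). The ratio of *Tlr6* to *Tlr2* did so as well (0.0382 and 0.0437 against 0.0642–0.0830), whereas that of *Tlr6* to *Tlr1* overlapped (0.643 and 0.502 against 0.605–1.24). These ratios were chosen after the values were seen and were given no test.

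As CPM for each 1000 CPM of summed macrophage markers, *Tlr7* was at 3.77 and 6.29 in WT and at 10.1, 8.57, 7.40, and 9.33 CPM in Cebpb ΔM macrophages, and the groups did not overlap on this scale either. *Tlr6* was at 1.30 and 1.22 CPM in WT and at 1.43–2.62 in Cebpb ΔM macrophages, also without overlap. These were the 2 members with every Cebpb ΔM library above every WT library on this scale, where 1.46% of all genes tested were. *Tlr4* was at 8.15 and 8.62 CPM in WT and at 7.99–9.07 CPM in Cebpb ΔM macrophages, and *Tlr2* at 22.5 and 27.6 CPM in WT and at 16.0–33.0 CPM in Cebpb ΔM macrophages, so that both overlapped. *Tlr1* (1.82 and 2.17 against 1.75–3.88), *Tlr8* (4.82 and 7.60 against 4.31–5.85), and *Tlr13* (5.96 and 10.7 against 3.31–6.92) overlapped as well. The other 3 had every Cebpb ΔM library below every WT library, as did 36.5% of all genes tested: *Tlr5* (3.91 and 3.95 in WT against 2.90–3.54), *Tlr3* (6.69 and 4.434 against 3.01–4.425), and *Tlr9* (0.321 and 0.416 against 0.157–0.3195). With the mean log2 level of the macrophage markers as a covariate in the fit, a setting chosen after seeing the data, the log2 fold change was 0.93 for *Tlr6*, 0.47 for *Tlr7*, 0.16 for *Tlr2*, and 0.07 for *Tlr4*, with adjusted *P* of 0.493, 0.642, 0.895, and 0.942 (edgeR). In the same fit *Tlr13* was at -1.88, *Tlr9* at -1.17, and *Tlr8* at -0.92. With the epithelial markers as the covariate, *Tlr7* was at 1.33 and *Tlr6* at 1.29.

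**Figure D4:**
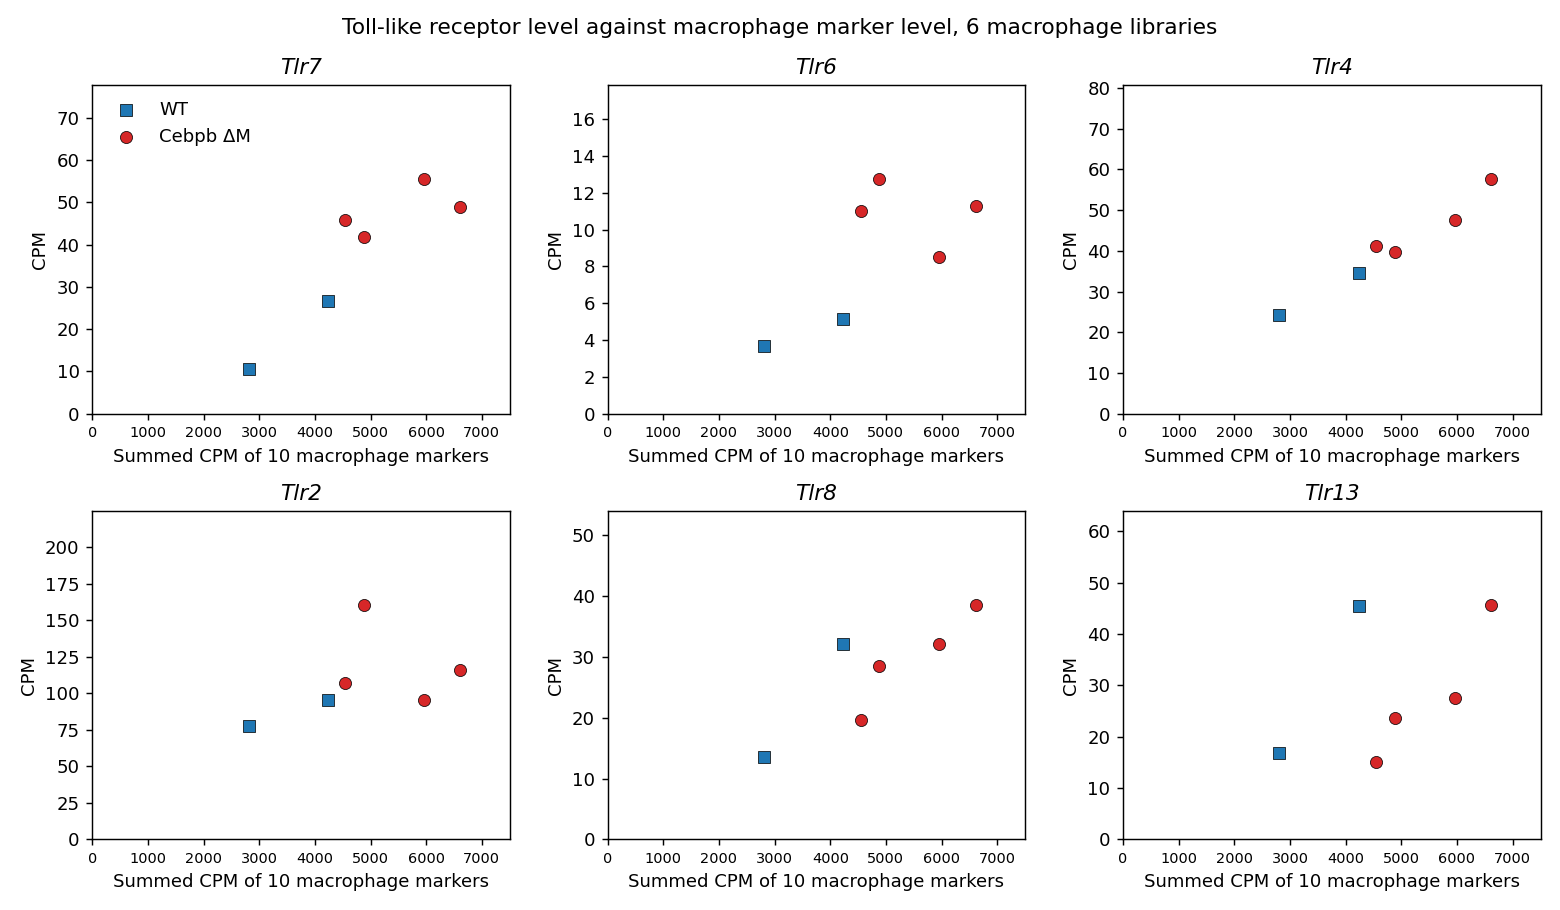
Each panel plots the CPM of 1 receptor gene against the summed CPM of 10 macrophage markers in the 6 macrophage libraries (squares, WT; circles, Cebpb ΔM), with both axes starting at 0. Marker sums run from 2811 to 4231 CPM in WT and from 4547 to 6609 CPM in Cebpb ΔM libraries, so the genotypes share no marker level.

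*Tlr7* and *Tlr9* are also textbook genes of plasmacytoid dendritic cells and B cells. The summed level of 10 plasmacytoid dendritic cell markers overlapped between genotypes, at 265 and 612 CPM in WT and 279–632 CPM in Cebpb ΔM macrophages, but several of its genes are expressed by MECs, in which the sum was 495–767 CPM. Of the 7 of these markers above the expression filter, 5 had a positive log2 fold change in macrophages, with a median of 0.24. Without overlap, 2 were higher, as were 10.4% of all genes tested. *Siglech*, a marker shared by plasmacytoid dendritic cells and some macrophages, was at 16.7 and 27.5 CPM in WT and at 56.7–94.4 CPM in Cebpb ΔM macrophages. The means of *Ly6d* (174.5 against 138.2 CPM) and *Tcf4* (188.9 against 184.9 CPM) were lower in Cebpb ΔM macrophages. The 10 B cell and plasma cell markers summed to 6.62 and 8.83 CPM in WT and 9.49–20.9 CPM in Cebpb ΔM macrophages. The 4 of them above the expression filter had positive log2 fold changes, with a median of 1.23, but 0 of the 4 separated the genotypes. *Tlr9* did not separate the genotypes either. The 10 conventional dendritic cell markers summed to 512 and 605 CPM in WT and 631–869 CPM in Cebpb ΔM macrophages, without overlap, and to 923–1328 CPM in MECs. In macrophages 7 of these 10 had a positive log2 fold change, with a median of 0.10, and 2 were higher without overlap, against 10.4% of all genes. *Cd209a* had a mean of 155 CPM in WT and 315 CPM in Cebpb ΔM macrophages, while the means of *Zbtb46*, *Clec9a*, and *Cd24a* were lower in Cebpb ΔM macrophages. The part of these cells in the *Tlr7* difference was not tested.

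By the rule fixed for *Tlr7*, the genes whose log2 CPM most resembled it over the 10 libraries were *Arhgap15* (Pearson r = 0.9992), the opposite-strand transcript *Arhgap15os* (0.9992), for which the same doubt about strand holds, and the lysosomal protease gene *Ctsc* (0.9986). All 10 libraries share the division into macrophages and MECs, which sets most of these values. *Arhgap15* was at 20.2 ± 9.89 CPM in WT macrophages (SD, n = 2), 35.5 ± 1.30 CPM in Cebpb ΔM macrophages (SD, n = 4), and 0.608 ± 0.0591 CPM in WT MECs (SD, n = 2).

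In the MECs, the 5 members above the expression filter were all lower in Cebpb ΔM mice, where 48.6% of all genes tested were higher, and none passed an adjusted *P* of 0.05. *Tlr4* and *Tlr2* were at 0.586 and 0.667 times the WT mean. The quasi-likelihood test called 8 of 15698 genes (0.051%) and no member. At an unadjusted *P* under 0.05, *Tlr2* and *Tlr4* were the 2 members of 5 that were lower, where 1.43% of all genes were, and *Tlr2*, *Tlr3*, and *Tlr4* had both Cebpb ΔM libraries below both WT libraries, where 14.5% of all genes did. With 2 libraries a group an exact permutation test cannot give a *P* below 0.333.

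*Tlr4* mRNA was at 33.1 and 25.7 CPM in WT MECs and at 16.5 and 17.9 CPM in the MECs of Cebpb ΔM mice (log2 fold change -0.75, SE 0.25, adjusted *P* = 0.497, edgeR). *Tlr2* was at 75.2 and 58.0 CPM in WT and at 43.7 and 45.1 CPM in Cebpb ΔM mice (log2 fold change -0.56, SE 0.22, adjusted *P* = 0.719, edgeR). *Tlr3* was at 12.2 and 13.04 CPM in WT and at 8.38 and 9.67 CPM in Cebpb ΔM mice (log2 fold change -0.46, SE 0.27). In each of the 3 genes both Cebpb ΔM libraries were below both WT libraries. *Tlr5* (log2 fold change -0.35, SE 0.36) and *Tlr6* (log2 fold change -0.15, SE 0.51, and 0.63 without WT library 3) overlapped between genotypes. *Tlr1* had 31 and 11 counts in WT MECs and 12 and 19 in Cebpb ΔM MECs and was below the filter, as were *Tlr7*, *Tlr8*, *Tlr9*, and *Tlr13*.

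The genotype difference had opposite signs in the cell types for each of the 5 genes tested in both, although that of *Tlr6* in MECs turned without WT library 3. Of all genes tested, 50.4% had a positive difference in macrophages and 48.6% in MECs. The difference between the cell types was itself tested. It was 1.47 on the log2 scale for *Tlr6* (SE 0.58, and 0.73 without WT MEC library 3) and 1.44 for *Tlr4* (SE 0.35, 95% interval 0.67 to 2.20), 1.06 for *Tlr2* (SE 0.34), 0.70 for *Tlr5*, and 0.68 for *Tlr3*. None passed after adjustment, with an adjusted *P* of 0.783 for *Tlr4*, 0.923 for *Tlr2*, and 0.945 for *Tlr6* (edgeR, adjusted over 18323 genes), and 0.0% of the 15268 genes tested in both cell types did. At an unadjusted *P* under 0.05, 3 of the 5 members had a positive difference (*Tlr2*, *Tlr4*, and *Tlr6*), where 2.63% of those genes did. For *Tlr4* the unadjusted *P* was 0.00167. Macrophages and MECs went through different selections, and the macrophage marker sum of the MEC libraries was 29.9 and 35.3 CPM in WT and 37.5 and 45.8 CPM in Cebpb ΔM mice. By group mean, *Csf1r* (9.51 against 18.4 CPM), *Lyve1* (1.89 against 3.61 CPM), *C1qa*, and *Mrc1* were higher in the MECs of Cebpb ΔM mice. *Mertk* (11.85 against 11.35 CPM), *Cd68* (7.54 against 6.41 CPM), *Adgre1* (0.304 against 0 CPM), *Cx3cr1*, *Fcgr1*, and *Itgam* were lower. The part of macrophage RNA in the MEC values was not tested.

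The partners of the receptors were described from 7 lists of 87 genes in all. Between genotypes in macrophages, none of the 84 genes tested passed an adjusted *P* of 0.05, 14 had an unadjusted *P* under 0.05, all of them higher in Cebpb ΔM macrophages (4.96% of all genes were), and the median log2 fold change was 0.21, beside 0.00 over all genes tested and 0.40 over the 10 receptors. By list, the median was 0.35 for TLR-induced cytokines (15 tested), 0.30 for chaperones and endosomal processing (16), 0.20 for co-receptors and accessory proteins (8), 0.13 for transcription factors (12), 0.11 for negative regulators (13), and 0.08 for adaptors and signaling kinases (19). The list of other family genes held *Tlr11* and *Tlr12*, of which only *Tlr11* was tested, and its counts ran from 0 to 66 in WT and from 14 to 78 in Cebpb ΔM macrophages. In MECs none of 73 genes passed, 3 had an unadjusted *P* under 0.05, all higher in Cebpb ΔM mice (3.99% of all genes were), and the median was -0.09.

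*Myd88*, the adaptor of all members but *Tlr3*, was at 203 and 187 CPM in WT macrophages and at 178–290 CPM in Cebpb ΔM macrophages, and at 195 and 231 CPM in WT MECs. *Unc93b1*, which escorts the nucleic acid-sensing receptors to endosomes, was at 445 and 671 CPM in WT and at 634–937 CPM in Cebpb ΔM macrophages, with overlapping groups. *Cd14*, a lipopolysaccharide co-receptor, was at 485 and 636 CPM in WT and at 715–812 CPM in Cebpb ΔM macrophages, without overlap (log2 fold change 0.45, SE 0.17, adjusted *P* = 0.528, edgeR). *Ly96*, which encodes the TLR4 partner MD-2, was at 15.9 and 19.8 CPM in WT and at 17.9–29.8 CPM in Cebpb ΔM macrophages. The groups of *Myd88*, *Unc93b1*, and *Ly96* overlapped, and that of *Cd14* did not.

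Between WT macrophages and WT MECs, 31 of the 84 partner genes tested were higher in macrophages at an adjusted *P* of 0.05 and 2 were lower (edgeR). Of all genes, 14.8% were higher and 10.7% lower. Only 73 partner genes were above the filter in the MEC libraries, so nothing is read from the count of 31. Of the genes named below, *Il1b*, *Ccl3*, *Ccl4*, *Il10*, *Ly86*, *Ticam2*, and *Tlr11* passed the filter only through the macrophage libraries, which fixed their direction. Among chaperones and endosomal processing genes, 7 of 16 were higher, among them *Pld4*, an endosomal nuclease (432 ± 97.5 against 1.20 ± 0.147 CPM), *Ctss*, a lysosomal protease (436 ± 11.8 against 1.56 ± 0.492 CPM), *Lgmn* (940 ± 197 against 89.8 ± 5.04 CPM), and *Unc93b1* (558 ± 160 against 107 ± 5.90 CPM; SD, n = 2 each). Among cytokines 8 of 15 were higher, led by *Il1b* (45.4 ± 0.156 against 0.446 ± 0.228 CPM), *Ccl3*, *Ccl4*, and *Il10*. Of co-receptors 3 of 8 were higher, namely *Ly86*, *Cd36*, and *Scarb1*, and of adaptors and kinases 2 of 19, *Ticam2* and *Ikbkb*. *Ticam2*, an adaptor of TLR4, was at 13.6 ± 6.51 CPM in WT macrophages and at 0.101 ± 0.0857 CPM in WT MECs, whereas the *Tlr4* means were 29.4 CPM in each. Of transcription factors 6 of 12 were higher, led by *Irf5*, *Rel*, *Irf8*, and *Irf1*, and of negative regulators 4 of 13, *Nfkbiz*, *Tnip3*, *Dusp1*, and *Tnfaip3*. *Tlr11* was also called higher, although 1 of the WT macrophage libraries held 0 counts of it.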

How the data were processed

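RNA from F4/80-selected mammary macrophages and lineage-depleted MECs was amplified with a low-input Smart-Seq kit and sequenced as paired ends by BGI. The authors trimmed reads with Trimmomatic, aligned them with HISAT2 to GRCm38, and counted read pairs with featureCounts v1.6.2 (mapping quality of at least 10, reverse strand, Ensembl release 100). The count tables they deposited, one per cell type, hold unnormalized counts. Symbols were matched for 55141 of 55487 gene IDs. The MEC table's header names 2 further MEC libraries, which were not analysed here.

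The study's filter was kept: genes of at least 300 nt with CPM above 1 in at least 2 libraries of the fit. edgeR 4.0.16 (TMM, quasi-likelihood test, Benjamini–Hochberg over all genes tested, threshold 0.05) was run within each cell type for genotype, and on all 10 libraries for cell type and interaction. Code was tested on simulated data. Printed CPM use TMM factors over all 10 libraries. DESeq2 1.42.0 and other alternatives are given with the closing section. With 4 against 2 libraries, an exact permutation test cannot go below 0.0667. Intervals are 95%, and floors of 3 counts cover counting error only. Members, gene lists, and tests were chosen with earlier results of these data known. All members, *Cebpb*, *Myd88*, *Unc93b1*, *Cd14*, and *Ly96* are named, with up to 4 partner genes per list and comparison that passed the threshold and the 3 genes most like *Tlr7*. The other genes were named after their values were seen: *Spi1*, *Siglech*, *Ly6d*, *Tcf4*, *Csf1r*, *Cd68*, *Adgre1*, *Lyve1*, *C1qa*, *Mrc1*, *Mertk*, *Cx3cr1*, *Fcgr1*, *Itgam*, *Cd209a*, *Zbtb46*, *Clec9a*, *Cd24a*, *Gm45542*, *Tmem189*, *Tlr11*, and *Tlr12*.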

Additional observations from a re-analysis of the deposited data

How the results depend on the processing

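No other setting called a member in MECs or in the difference between cell types, and in macrophages only DESeq2 did, with 2 members (*Tlr6*, log2 fold change 1.28, and *Tlr7*, 1.34). Of 160 recalculated member values for macrophages, 149 kept their direction and side of the threshold. Between genotypes in macrophages, the macrophage marker covariate, chosen after seeing the data, turned *Tlr1* to -0.15, *Tlr3* to -0.0063, *Tlr5* to -0.22, and *Tlr8* to -0.92, and moved *Tlr13* to -1.88 and *Tlr9* to -1.17. Leaving out each library in turn, with a lone library assumed to vary like the other groups, moved *Tlr8* from -0.14 to 1.11, *Tlr9* from -0.47 to 0.49, and *Tlr13* from -0.72 to 0.72. *Tlr8* turned without WT library 4, and *Tlr9* and *Tlr13* turned without WT library 5 or Cebpb ΔM library 4. In MECs *Tlr6* ran from -0.64 to 0.63, turning without WT library 3. Between WT cell types *Tlr4* ran from -0.23 to 0.27 and the members called from 6 to 7. The cause was not tested, beyond the fewer samples in these fits. Replicate numbers were not used as pairs: deviations of same-numbered libraries correlated at 0.041 in macrophages and 0.106 in MECs. The replicate block called 0 members in macrophages, MECs, and the difference between them, and moved the calls over all genes from 0 to 12 in macrophages and from 8 to 205 in MECs. Without TMM scaling the members summed to 65.8 CPM per kb in WT macrophages, against 62.3 with it. Over all genes, calls ran from 0 to 201 in macrophages, 0 to 337 in MECs, 0 to 53 for the difference, and 2456 to 5524 (main 4664) between WT cell types. Counts limit *Tlr9* and the near-zero members in MECs.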
